A study of Mus musculus with 42 samples.

Results

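The 8 genes described here encode the subunits of condensin, and they were taken by name from a count table of 27179 genes. Smc2 and Smc4 encode the ATPase core that both condensin complexes share. Ncapd2, Ncapg and Ncaph encode the subunits found only in condensin I, and Ncapd3, Ncapg2 and Ncaph2 those found only in condensin II. All 8 were in the table, and all 8 passed the filter on low counts in every comparison. The table holds RNA-seq of Thy1+ and c-Kit+ spermatogonia from C57BL/6J male mice at 10 days post-partum (dpp), with 3 libraries in each of 4 groups. Controls were Ddx4-Cre/Chd8+/F and mutants were Ddx4-Cre/Chd8F/-, so that both carried the Cre transgene and a floxed Chd8 allele. Chd8 encodes a chromatin remodeler, and Cre driven by Ddx4 acts in germ cells. By these genotypes, somatic cells that a sort can carry over also differed, with a deleted allele in mutants and a wild-type allele in controls. Control germ cells kept a wild-type allele beside the floxed one. The cells came from testes of 3 male pups for each analysis, and how pups were divided over libraries is not stated. Magnetic beads took c-Kit+ cells first and Thy1+ cells from what flowed through. Where nothing states that libraries of a group came from separate sets of animals, p-values measure the spread between these libraries only.

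Condensin is a ring-shaped motor that extrudes loops of DNA. Condensin II resides in the nucleus throughout the cell cycle and starts chromosome compaction in prophase, whereas condensin I reaches the chromosomes after the nuclear envelope breaks down and shortens the loops. The D and G subunits are HEAT-repeat proteins that bind DNA and steer loop extrusion, and the H subunits are kleisins that close the ring between both SMC heads. Spermatogonia divide by mitosis before they enter meiosis, so each of these divisions needs both complexes. Transcripts of many mitotic genes rise towards G2 and mitosis, and promoters of such genes often carry a CHR element (cell cycle genes homology region), sites for E2F factors and CCAAT boxes.

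The promoters of the members are shown because transcripts of several members moved together in the comparisons that follow, and because cell-cycle elements are defined by short words in them. RefSeq promoters (GRCm38.p6, the assembly named mm10 in the study) were found for 7 of the 8 genes, with none for Smc4. Ncapd3 had a window at each of its starts, which gave 8 windows in all. Both strands of the 250 bases before each start were searched for the CHR word TTTGAA, for 4 words of E2F sites, which were TTCCCGC together with its variant TTCGCGC as well as TTGCCGC with the further variant TTGGCGC, and for the CCAAT box. The CHR word lay in 5 of the 8 windows, against 16.0% of 32851 promoters of all genes. In Ncapd3 it lay only before the start inside the gene, 249 to 244 bases before it. The window at the outer start of Ncapd3 held an E2F word and no CHR word. An E2F word lay in 3 windows, against 7.89% of all promoters, and CCAAT lay in 3 windows, against 33.9%. None of the matches in the members' windows overlapped. The 150 bases before the start are printed for the members whose CHR word falls within them. Ncaph2 is also printed, since its window, like that of Ncaph, held none of the words searched. Its sequence does hold TTCGAA near the start, a spelling close to the CHR word that was not searched. It is therefore not shown to lack a CHR element. Capitals mark the CHR word, and in Ncapd2 also the E2F word, on the strand of the gene.
Smc2, chr4:52439071-52439220, plus strand: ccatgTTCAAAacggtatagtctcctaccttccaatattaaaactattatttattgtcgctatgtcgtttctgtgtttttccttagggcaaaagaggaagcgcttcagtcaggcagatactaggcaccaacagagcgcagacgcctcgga
Ncapd2, chr6:125191587-125191736, minus strand: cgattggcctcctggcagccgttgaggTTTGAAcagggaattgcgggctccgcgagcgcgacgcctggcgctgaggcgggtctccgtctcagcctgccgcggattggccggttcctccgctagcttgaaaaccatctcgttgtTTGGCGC
Ncapg, chr5:45669775-45669924, plus strand: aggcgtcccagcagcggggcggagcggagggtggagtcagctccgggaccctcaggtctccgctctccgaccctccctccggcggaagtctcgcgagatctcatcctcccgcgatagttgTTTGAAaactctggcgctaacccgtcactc
Ncapg2, chr12:116405286-116405435, plus strand: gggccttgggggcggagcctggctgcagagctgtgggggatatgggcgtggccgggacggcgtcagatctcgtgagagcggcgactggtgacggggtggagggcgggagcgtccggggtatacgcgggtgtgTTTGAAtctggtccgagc
Ncaph2, chr15:89355569-89355718, plus strand: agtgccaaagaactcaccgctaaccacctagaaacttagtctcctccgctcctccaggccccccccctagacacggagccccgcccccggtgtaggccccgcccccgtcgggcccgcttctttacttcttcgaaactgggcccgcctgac
The G subunits of both complexes had the CHR word close to the start, from 30 to 25 bases before it in Ncapg and from 18 to 13 bases before it in Ncapg2. In Ncapd2 the CHR word lay 123 to 118 bases and the E2F word 7 to 1 bases before the start, and in Smc2 the CHR word lay 145 to 140 bases before it on the opposite strand. A match is a word in the sequence and does not show that a factor binds there.

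Total counts ran from 32266861 to 45396233 per library, and a member took between 1372 reads (Ncaph, mutant Thy1+ replicate 3) and 15978 reads (Ncapd2, control c-Kit+ replicate 2). Chd8 lay between 258.4 and 315.5 CPM (counts scaled to a common library size) in all 12 libraries, with a log2 fold change in the mutants of 0.03 ± 0.09 (SE) in Thy1+ and 0.06 ± 0.07 in c-Kit+. Counts over the whole gene do not show the loss of a few deleted exons, so this value could not check the genotype labels. Kit was at 626.2 to 781.6 CPM in c-Kit+ and at 171.4 to 432.0 CPM in Thy1+, whereas Thy1 was at 0.436 to 1.07 CPM and at 11.7 to 17.1 CPM, respectively. The undifferentiated marker Gfra1 averaged 74.6 CPM in control Thy1+ and 4.18 CPM in control c-Kit+. RNA of somatic cells was present throughout. The summed level of 44 markers of 8 somatic cell types was 11944 to 15475 CPM in control and 13530 to 20662 CPM in mutant Thy1+, and 3003 to 3513 CPM in control and 5323 to 6880 CPM in mutant c-Kit+. None of the types' leading markers (Sox9, Star, Acta2, Col1a1, Pecam1, Csf1r, Cpa3 and Hba-a1) was at 0 in any library. Cpa3 (mast cell) fell to 0.278 CPM in control Thy1+ and Hba-a1 (erythroid) to 0.0858 CPM in control c-Kit+, both near 0. Of their lists, Fcer1a was at 0 in every mutant Thy1+ library and Hbb-bs in every control c-Kit+ library. The Sertoli markers stood apart in replicate 1 of Thy1+, with 522.1 CPM in the control and 692.0 CPM in the mutant against 115.9 to 237.1 CPM in the other Thy1+ libraries.

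All 8 members were transcribed in both populations (the plot of CPM by library). Levels of different genes were compared per exon length, as TPM, the read count per exon base scaled to the same total in each library. Ncapd2 was the most abundant member in every group and stood at 173.7 ± 33.8 TPM (SD, n = 3) in control Thy1+ and at 243.5 ± 19.9 TPM in control c-Kit+. Smc4 came next in the controls, with 112.4 ± 17.5 and 166.8 ± 36.8 TPM. Ncaph2 followed with 102.8 ± 6.40 and 112.6 ± 5.81 TPM, a range that overlapped that of Smc4 in Thy1+. On the opposite strand, Sco2 shares 25.0% of the exon length of Ncaph2 and Lcorl 20.8% of that of Ncapg. Reads there cannot be assigned to either gene, so the places of Ncaph2 and Ncapg in the order are less certain. Smc2, Ncapd3, Ncapg, Ncapg2 and Ncaph lay between 51.7 and 69.7 TPM on average in control Thy1+ and between 54.1 and 94.6 TPM in control c-Kit+. Among these lower members, neighbours in the order of their means overlapped in range in control Thy1+. In control c-Kit+ they also did, except Ncaph (52.1 to 56.4 TPM), which lay below the lowest library of every other member. In the mutants the order changed for Smc4, which was the third of the 8 in Thy1+ (70.2 ± 3.39 TPM) and the fifth in c-Kit+ (64.2 ± 2.33 TPM).

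**Figure D1:**
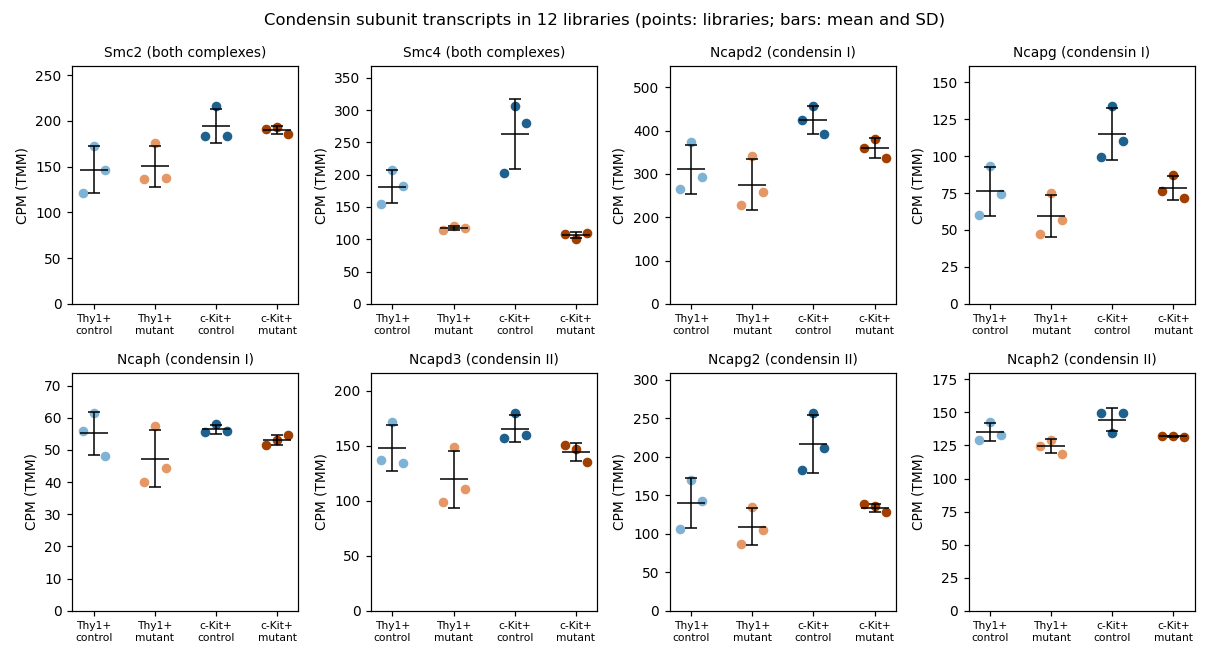
Level of each condensin subunit transcript in CPM (TMM-normalized over 12 libraries, each vertical axis from 0) in control and mutant Thy1+ and c-Kit+ libraries; points are libraries in the order of their replicate number, horizontal bars the mean and whiskers the SD (n = 3). Smc4 lies at 154.8 to 306.5 CPM in the controls and at 100.8 to 120.9 CPM in the mutants, and the other members differ less between genotypes.

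The effect of the genotype was examined first in c-Kit+ spermatogonia, which have started to differentiate. Transcripts of Smc4 fell by 61.1%, those of Ncapg2 fell by 40.7% and those of Ncapg fell by 34.3%. Smaller changes passed the FDR alone in Ncapd2, which fell by 18.7%, in Ncapd3, which fell by 16.2%, and in Ncaph2, which fell by 12.35%. Ncaph and Smc2 did not pass the test. Differential expression was called at an FDR under 0.05 (edgeR quasi-likelihood test, Benjamini-Hochberg adjustment over all 17134 genes tested) with an absolute log2 fold change over 0.5. Of the 8 members, 3 were called lower and 0 higher, where 7.41% of all genes were called lower. At an FDR under 0.05 without a limit on the fold change, 6 of 8 members were lower, where 18.3% of all genes were. In the fit of all 12 libraries this fell to 3 of 8, with adjusted p of 0.252 for Ncapd2, 0.322 for Ncapd3 and 0.194 for Ncaph2, and by the edgeR exact test to 5 of 8, with 0.0723 for Ncaph2. The median log2 fold change was -0.28 over the members and 0.01 over all genes. In 7 of 8 members the control and mutant libraries did not overlap. Such separation was not counted over all genes, of which 47.8% had an unadjusted p under 0.05 in the edgeR test.

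Smc4, the core ATPase that pairs with SMC2, was at 202.5, 306.5 and 279.4 CPM in the controls and at 108.8, 100.8 and 110.1 CPM in the mutants. Every mutant library lay well under every control library. The log2 fold change was -1.36 ± 0.13 (SE), with an adjusted p of 0.000170 by the edgeR quasi-likelihood test, and only 1.60% of the tested genes had as low a value or a lower one. Smc2, which encodes the partner in the same ring, was at 183.9, 216.3 and 183.9 CPM in the controls and at 191.4, 193.1 and 185.6 CPM in the mutants. These ranges overlapped, and the log2 fold change of -0.09 ± 0.07 had an adjusted p of 0.345 in the edgeR test. The 3 mutant c-Kit+ libraries had the lowest Smc4 levels of all 12 libraries, while their Smc2 levels lay within the range of the controls.

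Among the subunits of condensin II, Ncapg2 was at 182.4, 257.2 and 211.6 CPM in the controls and at 138.2, 135.6 and 128.2 CPM in the mutants. The groups did not overlap, and the mutant libraries lay within 10 CPM of each other. The log2 fold change of Ncapg2 was -0.75 ± 0.11 (adjusted p = 0.000645, edgeR). Ncapd3, the HEAT-repeat partner of NCAPG2 in the same complex, went from 157.2 to 180.1 CPM in the controls to 135.7 to 150.9 CPM in the mutants, a log2 fold change of -0.26 ± 0.07 (adjusted p = 0.0185, edgeR). The kleisin Ncaph2 lay at 134.3 to 149.7 CPM in the controls and at 131.4 to 132.2 CPM in the mutants. Its log2 fold change of -0.19 ± 0.06 (adjusted p = 0.0374, edgeR) was under the fold limit, and the lowest control lay only just above the mutants.

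Among the subunits of condensin I, Ncapg was at 99.6, 134.0 and 110.5 CPM in the controls and at 76.6, 87.1 and 71.6 CPM in the mutants. Its log2 fold change was -0.61 ± 0.11 (adjusted p = 0.00219, edgeR), and without control replicate 2, the highest library, it was -0.48 and passed under the fold limit, which left 2 members called. Ncapd2 lay at 392.7 to 457.1 CPM in the controls and at 336.7 to 381.2 CPM in the mutants, with a log2 fold change of -0.30 ± 0.07 (adjusted p = 0.00788, edgeR). The kleisin Ncaph lay at 55.5 to 58.0 CPM in the controls and at 51.5 to 54.8 CPM in the mutants, without overlap. Its log2 fold change of -0.15 ± 0.07 had an adjusted p of 0.121 in the edgeR test. In each complex the transcript of the G subunit had the lowest fold change, also with any 1 library left out. The order of the D and H subunits of condensin II was not stable, since without control replicate 2 Ncapd3 was at -0.20 and Ncaph2 at -0.25.

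**Figure D2:**
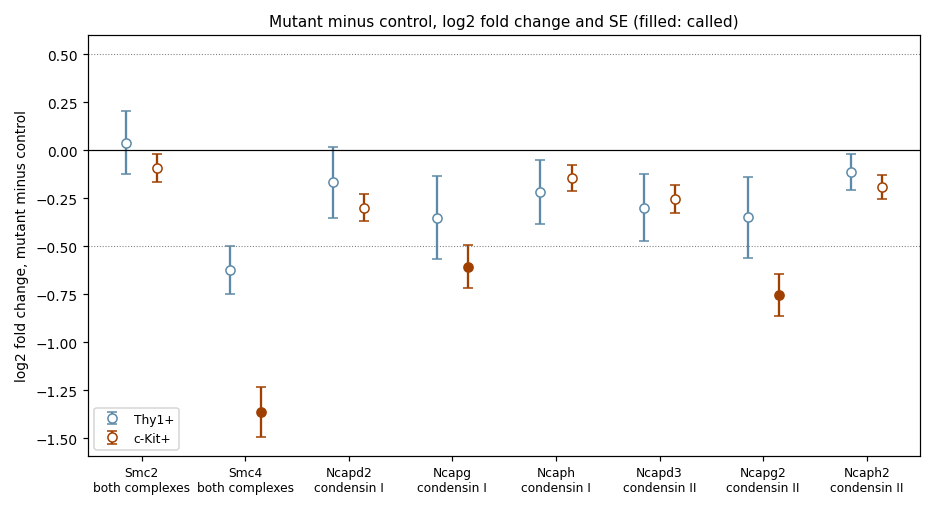
Log2 fold change, mutant minus control, of each condensin subunit in Thy1+ and c-Kit+ libraries (n = 3 against 3 in each); points are edgeR estimates, whiskers their SE, filled points genes called, and dotted lines the fold limit of 0.5. In c-Kit+ only Smc4 (-1.36), Ncapg2 (-0.75) and Ncapg (-0.61) are filled, and in Thy1+ no point is filled though Smc4 stands at -0.62.

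The share of reads that a gene takes also depends on the RNA of other cells in a library. Germ cell markers (6 genes) summed to 2121 to 2494 CPM in control and to 1680 to 1936 CPM in mutant c-Kit+, and 4 of the 6 were lower at an FDR under 0.05. Somatic markers were higher in mutant c-Kit+ as given above, with 6 of 6 stromal, 6 of 6 endothelial, 5 of 6 Sertoli, 4 of 6 Leydig, 3 of 5 peritubular myoid, 3 of 4 mast cell, 1 of 6 macrophage and 0 of 1 erythroid genes tested called higher and 0 lower.  In bulk libraries, fewer cells of a type and less RNA per cell cannot be told apart. The part of these markers in the members' values was not tested, but the comparison was repeated with the 6 germ cell genes as the measure of library size. This scaling moved the median log2 fold change of all genes by 0.31 (the plot of fold changes under each scaling). Relative to germ cell markers, Smc4 was lower by 51.3% (log2 fold change -1.04 ± 0.13, adjusted p = 0.000183, edgeR) and was the only member called. Ncapg2 (-0.43, adjusted p = 0.00505) and Ncapg (-0.29, adjusted p = 0.0381) were lower under the fold limit, whereas Smc2 was higher (0.23, adjusted p = 0.0368, edgeR). The remaining 4 members turned to between 0.02 and 0.17 with adjusted p from 0.205 to 0.867. Ncapd2, Ncapd3 and Ncaph2 thus passed the FDR relative to all RNA and did not pass it relative to these 6 genes.

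**Figure D3:**
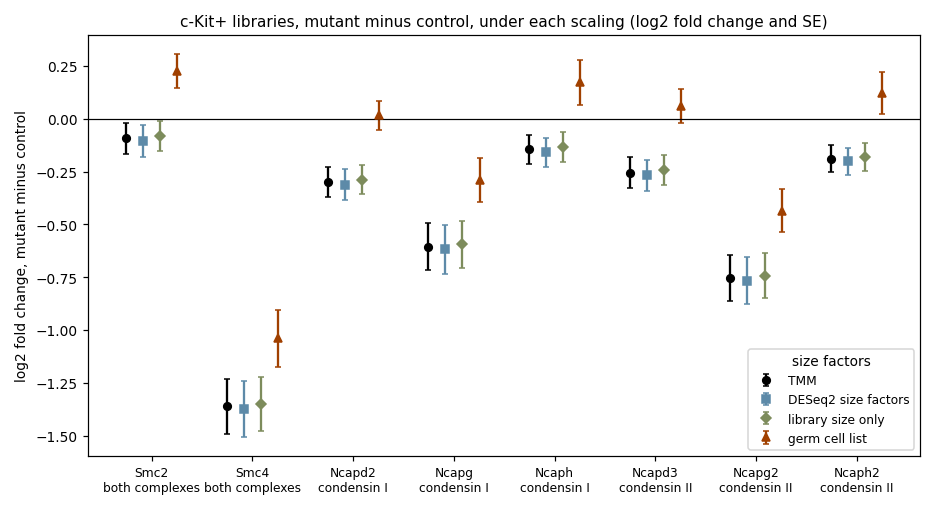
Log2 fold change, mutant minus control, of each condensin subunit in c-Kit+ libraries under 4 sets of size factors; points are edgeR estimates and whiskers their SE (n = 3 against 3). TMM, DESeq2 size factors and library size give nearly the same values, and with the germ cell list as size factor all points move up, so that Smc4, Ncapg2 and Ncapg stay below 0 and the other 5 members lie above it.

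In the Thy1+ libraries, whose sort aims at undifferentiated spermatogonia and which also held stromal markers at 10996 to 14323 CPM in the controls, 7 of 8 members had a log2 fold change under 0, but with the spread of the 3 libraries in each group no gene of the table passed. Of the 8 members 0 were called, and of all 17416 genes tested likewise 0 (0% called lower), with 2151 genes at an unadjusted p under 0.05 and 294 and 384 genes called by the edgeR exact test and by DESeq2. Smc4 was at 154.8, 207.1 and 182.9 CPM in the controls and at 114.4, 120.9 and 117.5 CPM in the mutants. It was the only member whose groups did not overlap, with a log2 fold change of -0.62 ± 0.12 (unadjusted p = 0.00102, adjusted p = 0.186, edgeR quasi-likelihood test). Smc4 was called lower by the edgeR exact test (adjusted p = 0.0130), by DESeq2 (adjusted p = 0.00264) and in the fit of 12 libraries (adjusted p = 0.0427, edgeR). With other size factors, other filters or any 1 library left out, 0 members were called. Without control replicate 1, the library with more Sertoli RNA, Smc4 was at -0.73, and without mutant replicate 1 at -0.60.

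Libraries of the same replicate number deviated together in Thy1+, and a fit with that number as a block lowered the biological coefficient of variation from 20.9% to 8.30%. In the blocked fit Smc4 was called lower (log2 fold change -0.61 ± 0.06, adjusted p = 6.35e-06, edgeR), where 4.92% of all genes were called lower. At an FDR under 0.05 alone, 6 of 8 members were lower in the blocked fit, where 13.6% of all genes were. The G subunits Ncapg2 (-0.35 ± 0.06, adjusted p = 0.000235) and Ncapg (-0.35 ± 0.06, adjusted p = 0.000495) were next in size, followed by the HEAT-repeat subunit Ncapd3 (-0.31, adjusted p = 0.000858), the kleisin Ncaph (-0.23, adjusted p = 0.0422) and the HEAT-repeat subunit Ncapd2 (-0.17, adjusted p = 0.0139, all edgeR with the block). Ncaph2 (-0.11, adjusted p = 0.128) and Smc2 (0.05, adjusted p = 0.595) did not pass in it. Within the 3 pairs of equal number the mutant library was the lower one in 3 of 3 for every member but Smc2, which was higher in 2 of 3. Smc2 was at 121.5, 172.7 and 146.2 CPM in the controls and at 136.8, 176.2 and 137.9 CPM in the mutants. Ncapg2 illustrates what the pairing does, with 105.7, 170.2 and 143.0 CPM in controls 1 to 3 and 87.0, 135.1 and 105.3 CPM in mutants 1 to 3. The groups overlapped, while each mutant lay below the control of its number. With the germ cell genes as size factors and no block, the median of all genes moved by 0.46, Smc4 was at -0.15 (adjusted p = 0.681) and the other 7 members were at 0.09 to 0.49, none with an FDR under 0.05 by edgeR. The germ cell markers summed to 1408 to 2017 CPM in control and to 1024 to 1659 CPM in mutant Thy1+. None of the cell type markers was called in mutant Thy1+ without the block. With the block, 5 of 6 Sertoli markers were called higher, as was 1 each of the stromal, macrophage, mast cell and erythroid markers, whereas 5 of 6 undifferentiated, 1 of 5 differentiating, 1 of 6 germ cell and 6 of 6 spermatocyte markers were called lower. Their part in the blocked values of the members was not tested.

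Smc4 and Smc2 encode partners of the same ring, and their ratio within a library does not depend on how the library is scaled. The ratio of TPM (Smc4 over Smc2) was 1.66, 1.56 and 1.63 in control Thy1+ and 1.09, 0.894 and 1.11 in mutant Thy1+. In c-Kit+ it was 1.44, 1.85 and 1.98 in the controls and 0.741, 0.681 and 0.773 in the mutants. Smc4 was the more abundant of both transcripts in all 6 control libraries and the less abundant in all 3 mutant c-Kit+ libraries. The other subunit pairs differed less between genotypes. Ncapg over Ncapg2 lay between 0.930 and 1.15 in all 12 libraries, so that the counted reads per length were about equal for the G subunits of both complexes. Ncaph over Ncaph2 lay between 0.395 and 0.545, and Ncapd2 over Ncapd3 between 2.35 and 3.30, with overlapping control and mutant ranges in c-Kit+ for each of these ratios but Ncapg over Ncapg2. That ratio was 0.930 to 0.975 in control and 0.990 to 1.15 in mutant c-Kit+. In Thy1+ the ratio of Ncapd2 to Ncapd3 was 2.35 to 2.65 in the controls and 2.79 to 2.83 in the mutants. These ratios are given as descriptions with no test. Reads in the exon length that Ncapg shares with Lcorl (20.8%) and Ncaph2 with Sco2 (25.0%) cannot be assigned. The size of the ratios with Ncapg or Ncaph2 is therefore less certain, and equal levels of the G transcripts were not shown.

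**Figure D4:**
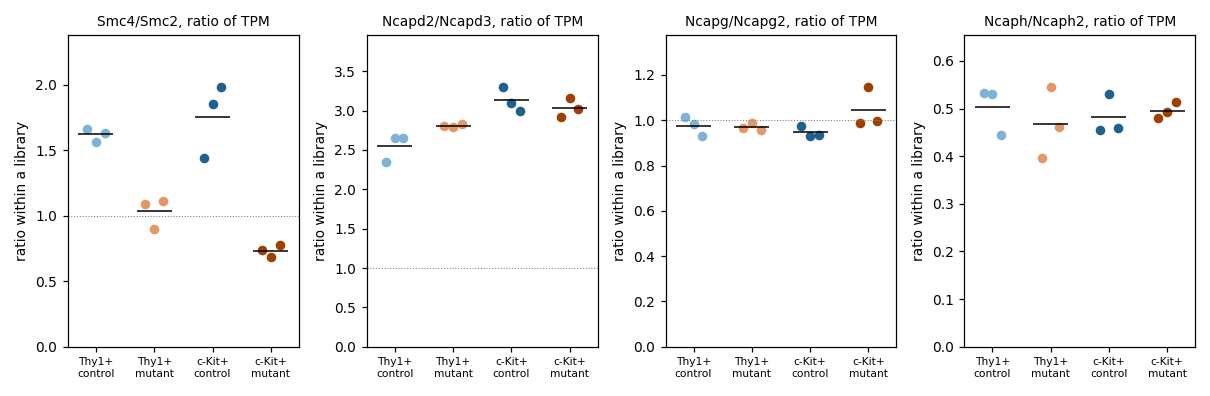
Ratio of the TPM of 2 subunits within a library, for the SMC pair and for the D, G and H subunits of condensin I over those of condensin II; points are libraries, lines the mean of 3 libraries, dotted lines a ratio of 1, and each vertical axis starts at 0. Smc4 over Smc2 is 1.44 or more in every control library and at 0.681 to 1.11 in the mutant libraries.

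Between the control populations, 5 of 8 members were higher in c-Kit+ than in Thy1+ at an FDR under 0.05, and 3 did not pass. Ncapg2 rose by 53.0%, Ncapg by 48.4% and Smc4 by 42.3% at the FDR and fold limits, and Ncapd2 (34.8%) and Smc2 (30.5%) passed the FDR alone. Of 8 members, 3 were called higher, where 7.08% of 17350 genes were called higher. At an FDR under 0.05 alone 5 of 8 were higher, where 13.6% of all genes were. Ncapg2 had a log2 difference of 0.61 ± 0.18 (adjusted p = 0.0265), Ncapg of 0.57 ± 0.17 (adjusted p = 0.0274) and Smc4 of 0.51 ± 0.16 (adjusted p = 0.0352, all edgeR). Libraries of these members in both populations did not overlap, except for Smc4, whose lowest c-Kit+ control (202.5 CPM) was under the highest Thy1+ control (207.1 CPM). The D subunit Ncapd2 had 0.43 ± 0.13 (adjusted p = 0.0303) and Smc2 0.38 ± 0.13 (adjusted p = 0.0461, edgeR). Ncapd3, Ncaph2 and Ncaph had log2 differences of 0.14, 0.07 and 0.01 with adjusted p from 0.350 to 0.975. These calls changed with the libraries included, and why they changed was not tested. With 1 library left out at a time, 0 members were called without Thy1+ control 1, without Thy1+ control 3 or without c-Kit+ control 2, 1 without c-Kit+ control 3, 3 without c-Kit+ control 1 and 5 without Thy1+ control 2. With the replicate number as a block the values hardly moved, but Smc4 came to just under the fold limit (0.497, adjusted p = 0.000800, edgeR), which left 2 members called. With germ cell genes as size factors 0 members were called, and the median log2 difference of the germ cell markers themselves was 0.26. Somatic markers also differed between the control populations. All 6 stromal and all 6 macrophage markers, 4 of 5 peritubular myoid and 3 of 6 endothelial markers were called lower in c-Kit+, while 5 of 6 Leydig and 4 of 4 mast cell markers were called higher. Their part in the members' differences was not tested.

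In the mutants no member was called between the populations, where 5.03% of 17346 genes were called higher and 15.3% lower. At an unadjusted p under 0.05, 3 of 8 members passed, where 42.0% of all genes did. Smc2 (0.29 ± 0.11, adjusted p = 0.0797) and Ncapd2 (0.34 ± 0.14, adjusted p = 0.105) had differences above 0, and Smc4 (-0.18 ± 0.08, adjusted p = 0.118, edgeR) had one below 0. Every c-Kit+ mutant library had less Smc4 (100.8 to 110.1 CPM) than every Thy1+ mutant library (114.4 to 120.9 CPM), the only member for which the c-Kit+ libraries were the lower group. Without Thy1+ mutant replicate 2, Ncapd2 (0.51, adjusted p = 0.00227) and Ncapg (0.55, adjusted p = 0.00757, edgeR) were called higher in c-Kit+.

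**Figure D5:**
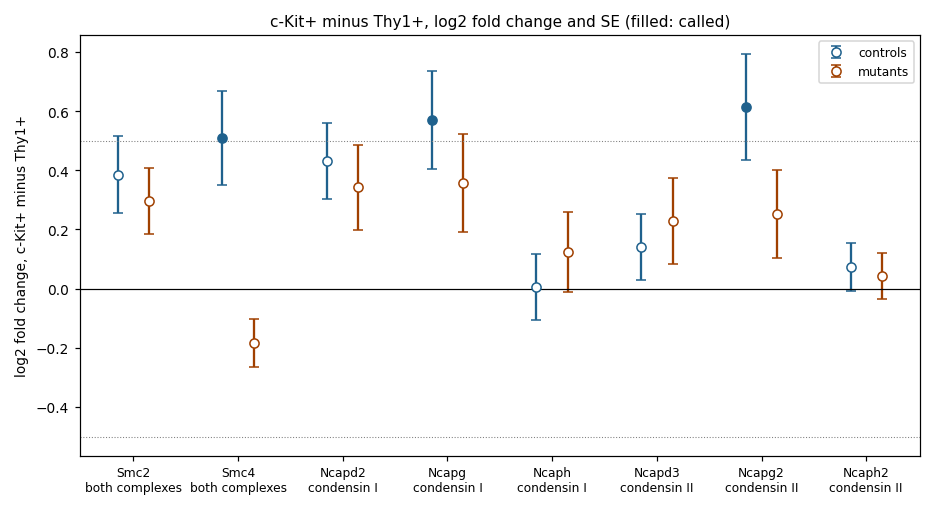
Log2 fold change, c-Kit+ minus Thy1+, of each condensin subunit in controls and in mutants (n = 3 against 3 in each); points are edgeR estimates, whiskers their SE, filled points genes called, and dotted lines the fold limit of 0.5. In the controls Ncapg2 (0.61), Ncapg (0.57) and Smc4 (0.51) are filled, and in the mutants no point is filled and Smc4 (-0.18) is the only one below 0.

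Whether the genotype effect differed between the populations was tested as an interaction over all 12 libraries, in which 0 of 18002 genes passed (0% called lower, 1804 at an unadjusted p under 0.05, 59 by DESeq2). Among the members, Smc4 had the lowest value, a log2 difference of the effects of -0.68 ± 0.19 (unadjusted p = 0.00418, adjusted p = 0.387, edgeR). It means a larger fall in c-Kit+ by the estimate and did not pass the correction. Ncapg2 stood at -0.34 ± 0.26, and the other 6 members lay between -0.19 and 0.14 with adjusted p from 0.849 to 0.982. In this fit, without the replicate number as a block, no member's effect was shown to differ between the populations.

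Genes that act with condensin or belong to related complexes gave a frame for these values. Of 12 regulators and chromosome scaffold partners, 7 were lower and 0 higher at an FDR under 0.05 in mutant c-Kit+ (median log2 fold change -0.24, against 0.01 over all genes). Top2a, the topoisomerase that works beside condensin on the chromosome axis, was the 1 called (550.7 ± 15.5 CPM in mutants against 799.5 ± 138.2 in controls, log2 fold change -0.60 ± 0.10, adjusted p = 0.00167, edgeR). Of 16 G2/M genes 9 were lower and 2 of them called, the kinase gene Bub1 (-0.76 ± 0.13) and the kinesin gene Kif23 (-0.63 ± 0.09). All 12 replication genes of S phase were lower at an FDR under 0.05 and 5 were called, among them Rrm2 (-0.96), Mcm5 (-0.78) and Gins1 (-0.74), with a median of -0.37.

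For the related SMC complexes the counts were as follows, with no test between lists. Of 5 cohesin core genes 0 were called, 2 were lower and 1 higher at an FDR under 0.05 in mutant c-Kit+, with a median of 0.04, and Smc3, which encodes a core ATPase of cohesin, was at -0.42 ± 0.09 (adjusted p = 0.00350, edgeR). Of 6 genes of the SMC5/6 complex 0 were called and Smc6 alone was lower at an FDR under 0.05 (-0.22 ± 0.07, adjusted p = 0.0322, edgeR). In Thy1+ none of these lists had a gene with an FDR under 0.05 in the fit without the block. With the block, 6 of 12 replication genes, 5 of 16 G2/M genes and 2 of 12 partners were lower there, and 0, 1 and 1 higher. Between control populations, 11 of 12 partners, 15 of 16 G2/M genes and 10 of 12 replication genes were higher in c-Kit+ at an FDR under 0.05. Spermatocyte markers (6 genes) were all called both higher in c-Kit+ than in Thy1+ controls and lower in mutant than in control c-Kit+, with medians of 1.11 and -1.55. Their summed level was 547.0 to 888.2 CPM in control and 246.3 to 278.0 CPM in mutant c-Kit+. Of the markers of differentiating spermatogonia (5 genes) 4 were called higher in c-Kit+ than in Thy1+ controls, and 1, Stra8, was called lower in mutant c-Kit+ (-0.67 ± 0.09). Of the markers of undifferentiated spermatogonia (6 genes) all were called lower in c-Kit+ than in Thy1+ controls. In mutant against control c-Kit+, 5 of them were tested, with 2 above 0, 3 below 0 and a median of -0.09. Etv5 (1.08 ± 0.14) was called higher, and no other was called. The undifferentiated markers thus ran opposite to the called members between the control populations (median -2.59), and the part of these cell type and phase lists in the members' values was not tested.

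The members were also compared with each other and with all genes in shape, as the root mean square difference of centred log2 CPM over the 12 libraries, which is a description. Ncapg and Ncapg2 were each other's nearest member at 0.08. Smc4 was the farthest member from 6 of the other 7, at 0.52 from Smc2, and lay at 0.31 from Ncapg2, its nearest member. Among 11164 genes outside the group, the 5 with a profile nearest to the members' mean were Pi4ka (0.039), Cep192 (0.040), Erlin1 (0.047), Zfp318 (0.048) and Zfp597 (0.050). Cep192, which encodes a centrosomal protein, was at -0.30 in Thy1+ and -0.42 in c-Kit+ mutants, and Pi4ka, which encodes a lipid kinase, at -0.28 and -0.48. Dnmt1 and Hat1 lay within 0.041 of Ncapd2, and Atm and Pole lay near both Ncapg (0.064 and 0.062) and Ncapg2 (0.053 and 0.075).

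Counting did not use strand. Ncapg shares 770 exon bases (20.8% of its exon length) with Lcorl on the opposite strand, and Ncaph2 shares 829 bases (25.0%) with Sco2 and 535 (16.1%) with Tymp. Reads of those stretches cannot be assigned to either gene, so the values of Ncapg and Ncaph2 are less certain. Smc4 hosts Mir15b and Mir16-2, and Ncapd2 hosts Scarna10, with 0 shared exon bases, and the other 4 members overlapped no listed gene. In the coordinates of the table (mm10), Smc4 lies at chr3:69004972-69034623 on the plus strand with 24 exons and Ncapg2 at chr12:116405402-116463531 on the plus strand with 29 exons.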

How the data were processed

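RNA-seq of 12 libraries was analysed. The authors trimmed paired-end reads with Trimmomatic 0.39, aligned them to mm10 with HISAT2 2.1.0 and counted them on RefSeq exons with featureCounts (version 2.0.3 in the file header). What was deposited is a table of unnormalized read counts for each gene, with no stated filter. The header's command names no option for strand or for fragments, and 65.6% to 69.5% of the values from 1 to 19 were even, so that both reads of a fragment were often counted. The deposited exon length of each gene, in bases, was used for TPM. Gene IDs were matched to symbols for 25275 of 27179 genes, and genes without one took 0.511% to 0.776% of the counts.

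Tests were run in edgeR 4.0.16 (R 4.3.3) with TMM normalization, filterByExpr, the quasi-likelihood F test (two-sided) and Benjamini-Hochberg adjustment over all genes tested, separately for the mutant-control and population comparisons and over 12 libraries for the interaction. Printed CPM values are scaled over all 12 libraries, so that a ratio of mean CPM can differ slightly from a fitted fold change. Genotype comparisons in both populations and population comparisons in both genotypes share libraries. Libraries of a group differed by more than counting error (chi-square per degree of freedom 10.8 to 76.7).

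Deviations of log2 CPM from the mean of each group were correlated between libraries that carry equal numbers. They gave 0.266 to 0.490 for Thy1+, 0.101 to 0.125 for c-Kit+ and 0.134 to 0.298 for both control populations. Every pair lay above the limit of 0.1, so these comparisons were taken as paired. The main tests still had no block, and the pairing entered only in the alternative fit with the block. The pairing comes from the data, since the study does not say what the numbers share.

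The members, marker and pathway lists were chosen with earlier results of these data known. Named genes were the members, Chd8, Thy1 and Kit, up to 3 called genes with the largest change per pathway list (or the 1 with the largest where none was called), the leading gene of each marker list, and the 5 genes most like the members. The genes nearest to Ncapd2, Ncapg and Ncapg2, and Stra8 and Etv5, were added after their values were seen. Alternatives were the edgeR exact test, DESeq2 1.42.0, its size factors in edgeR, library size, the germ cell list (6 genes) as size factor, other filters (none, or 1 CPM in 3 libraries), a fit of 12 libraries, no fold limit, the block, and each library left out. The steps were tested on simulated data.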

Additional observations from a re-analysis of the deposited data

Results flagged for a closer look

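The estimated population difference of Smc4 was above 0 in controls (0.51, adjusted p = 0.0352) and below 0 in mutants (-0.18, adjusted p = 0.118, edgeR). The latter did not pass, and the control ranges overlapped (202.5 CPM in c-Kit+ under 207.1 CPM in Thy1+). The flag was raised by a rule on libraries. In the controls every c-Kit+ library had more Smc4 than the mean of the Thy1+ libraries, and in the mutants every c-Kit+ library had less. The difference between both, which is also the difference between the genotype effects in c-Kit+ and Thy1+, was -0.68 ± 0.19 on the log2 scale in the fit of 12 libraries. It had an unadjusted p of 0.00418 and an adjusted p of 0.387 (edgeR quasi-likelihood test, Benjamini-Hochberg adjustment over 18002 genes), so it did not pass the correction. With each library left out in turn it ranged from -0.87 to -0.55, and with the replicate number as a block it was -0.67 (adjusted p = 0.0425), although the numbers did not meet the rule for pairing in this comparison.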

How the results depend on the processing

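With the germ cell list as size factor, the median log2 value of all genes moved by 0.46 in Thy1+, 0.31 in c-Kit+, -0.28 between controls, -0.47 between mutants and -0.21 in the interaction. The calls were 4918 higher and 500 lower in c-Kit+ (against 2542 and 1270), 227 and 4538 between control populations (against 1229 and 3594) and 73 and 3658 between mutant populations (against 872 and 2653). With library size alone they were 1851 and 3252 and 1390 and 2393 in the latter comparisons. Germ cell scaling left 1 member called lower in c-Kit+ and 0 called higher between control populations. It turned the log2 values to 0.27 (Ncapd2), 0.087 (Ncapg), 0.22 (Ncaph), 0.14 (Ncapd3), 0.089 (Ncapg2) and 0.35 (Ncaph2) in Thy1+. In c-Kit+ they turned to 0.016 (Ncapd2), 0.17 (Ncaph), 0.060 (Ncapd3), 0.12 (Ncaph2) and 0.23 (Smc2). Between controls they turned to -0.26 (Ncaph), -0.12 (Ncapd3) and -0.20 (Ncaph2). Between mutants they turned to -0.085 (Ncapd2), -0.066 (Ncapg), -0.30 (Ncaph), -0.20 (Ncapd3), -0.17 (Ncapg2), -0.42 (Ncaph2) and -0.14 (Smc2). In the interaction they turned to -0.046 (Ncaph) and -0.075 (Ncapd3). By its construction this scaling subtracts the germ cell genes' own change from every gene.

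The other settings moved counts as follows. In Thy1+, where 0 genes were called, 1 member (Smc4) was called lower with the replicate block (1414 genes in all), by the edgeR exact test (294), in the fit of 12 libraries (250) and by DESeq2 (384). Without a fold limit 6 members and 6710 genes were called in c-Kit+, and 5 members were higher between controls. In the interaction the replicate block called 1 member (Smc4) lower and 446 genes, and DESeq2 called 59. The block also took the call of Smc4 between controls (0.497). Apart from these calls of Smc4 it changed no call of a member at the FDR and fold limits. Between mutants, where equal numbers correlated at 0.0211 to 0.204 and were not taken as paired, it gave 3 members with an FDR under 0.05 (Smc2, Ncapg and Ncapd2), where 13.6% of all genes were higher. With 1 library left out, members called higher ran from 0 to 5 between controls and from 0 to 2 between mutants, while all genes called ran from 0 to 10 in Thy1+, from 2341 to 5017 between mutants (2341 without c-Kit+ mutant 2) and from 0 to 1 in the interaction. The same step gave log2 values on both sides of 0 for Smc2 in Thy1+ (-0.11 to 0.18), for Ncaph between controls (-0.040 to 0.13) and between mutants (-0.0016 to 0.28), and in the interaction for Ncapd2 (-0.31 to 0.11), Ncapd3 (-0.10 to 0.30), Ncapg (-0.46 to 0.0082), Ncaph (-0.039 to 0.30), Ncaph2 (-0.14 to 0.018) and Smc2 (-0.29 to 0.061). None of these was called with all libraries. Of the members' fold changes under all alternatives, 561 kept direction and side of the threshold, 11 passed it newly, 19 lost it and 41 changed sign. Apart from the scaling, the causes were not tested.

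Each group had 3 libraries, and the fall of Smc4 in c-Kit+ was called under every alternative run, with log2 values from -1.52 to -1.04.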
